A study of Mus musculus with 6 samples.

Results

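GABA, the main inhibitory transmitter of the brain, is also made in pancreatic islets, and 8 genes of its synthesis, breakdown, vesicular loading and receptors were examined in whole islets of *Akita* and WT mice. They were *Gad1* and *Gad2* (synthesis), *Abat* and *Aldh5a1* (breakdown), *Slc32a1* (vesicular loading), and *Gabbr1*, *Gabbr2* and *Gabra4* (receptors). All 8 were found by symbol among the 40914 genes with counts. The set was chosen by a value of the same comparison, since the pathway was picked because *Gad1* was much lower in *Akita* islets. The *Akita* to WT differences of the 8 genes are therefore given as a description, with no test, and support nothing beyond themselves.

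The *Akita* mice carried the Ins2 WT/C96Y genotype, in which a proinsulin that cannot fold properly is made beside the normal hormone, and the WT mice carried no such allele. Mice of both genotypes were 19 to 21 days old; the *Akita* allele was kept on C57BL/6J, and by the study's methods *Akita* males were used. There were 3 *Akita* and 3 WT libraries, each from the pooled islets of 3 mice, so that any p-value measures the spread between pools; the *Akita* allele is carried in the germline and acts where *Ins2* is expressed, and hand-picked islets were kept overnight in culture before use in the study's procedures. The libraries are called AK4, AK5 and AK6 for *Akita* and WT1, WT2 and WT3 for WT, after the columns of the count table.

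In the islet, GABA is made mainly in β-cells. Glutamate decarboxylase (GAD) removes a carboxyl group from glutamate to give GABA. *Gad1* and *Gad2* encode its larger and smaller isoforms, and the smaller isoform is a well-known autoantigen in type 1 diabetes. GABA transaminase, encoded by *Abat*, and succinate semialdehyde dehydrogenase, encoded by *Aldh5a1*, then return the carbon to the citric acid cycle in the route called the GABA shunt. Released GABA acts on GABA-A receptors, which are chloride channels built of several subunits, and on GABA-B receptors, which couple to inhibitory G proteins and need both *Gabbr1* and *Gabbr2* products to reach the surface and signal.

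The start regions of the GAD genes are shown because these 2 genes carry the lowest *Akita* to WT ratios of the set. Both lie on chromosome 2 (GRCm38), *Gad1* at chr2:70553072-70602014 and *Gad2* at chr2:22622205-22693874, each on the plus strand. The sequences (RefSeq, GRCm38.p6) run 5′ to 3′ and stop at the last base before an exon annotated by GENCODE, 163 bases at chr2:70561879-70562041 for *Gad1* and 128 bases at chr2:22622077-22622204 for *Gad2*. Capitals mark TGCTGA, the short core of sites bound by MAF factors, and TATAAA, the TATA box, on either strand.
Gad1: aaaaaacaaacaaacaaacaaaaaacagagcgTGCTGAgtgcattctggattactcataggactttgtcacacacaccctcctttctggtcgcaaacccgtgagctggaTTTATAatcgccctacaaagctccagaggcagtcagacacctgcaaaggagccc
Gad2: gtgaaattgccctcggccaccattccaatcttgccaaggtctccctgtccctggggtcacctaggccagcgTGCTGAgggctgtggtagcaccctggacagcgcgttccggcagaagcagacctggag

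Each stretch held a TGCTGA on the printed strand, starting 131 bases before the exon that follows in *Gad1* and 57 bases before it in *Gad2*. The annotated *Gad1* gene starts upstream of its stretch, at chr2:70553072, so the exon that follows there is not its first. The *Gad1* stretch also held a TATAAA on the other strand, starting 54 bases before the same exon. Over the whole windows of 300 bases around the RefSeq start, TGCTGA was found once in *Gad1*, at 2 places in *Gad2*, once in *Gabbr2*, and in none of the windows of *Aldh5a1*, *Slc32a1*, *Gabbr1* and *Gabra4*, whereas 19.5% of all 32851 windows held it on either strand. TATAAA was found in *Gad1* only of the 7 genes with a window, against 13.6% of all windows. The GC box GGGCGG, a site of Sp factors, was matched in *Gad1*, *Gabbr1*, *Gabbr2* and *Gabra4*, against 35.7% of all windows. The short core of the cAMP response element, TGACG, was found in *Gad2* and *Aldh5a1*, against 20.8% of all windows, and ACGTG, the core of ATF6 and XBP1 sites, was found in *Aldh5a1*, against 19.6%. The full element TGACGTCA (1.79% of all windows; it contains TGACG), TGATGCAA, a C/EBP-ATF site (0.895%), CTAATG, a PDX1-type homeodomain site (7.36%), and the element ERSE (0.119%) were matched in none of the 7. The 7 windows were rich in G and C, from 58.7% in *Gabra4* to 80.3% in *Gabbr2*, against a median of 52.7% over all windows. These are matches of letters and do not show binding.

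The libraries held 24821685 to 26560784 counts in *Akita* and 22069554 to 27043169 in WT, and 15407 genes passed the filter on low counts. Levels are given in CPM, a gene's counts relative to the size of its library, which was scaled by TMM (one factor per library, from the trimmed mean of log ratios), and levels of different genes are compared only as CPM per kilobase (kb) of exon. Islet hormones were abundant in all libraries, and insulin transcripts (*Ins1* and *Ins2* together) made up 11.8% to 12.6% of the counts in *Akita* and 17.6% to 19.2% in WT. Acinar genes varied within both genotypes, with a summed level of 343.5 to 8257 CPM in *Akita* and 391.5 to 7603 CPM in WT over the 22 genes listed. Of all genes tested by limma-voom, 117 were called higher in *Akita* (0.759%) and 132 lower (0.857%) at a Benjamini–Hochberg adjusted p under 0.05. These counts changed whichever library was left out, which also leaves fewer libraries to fit. They were 346 higher and 242 lower without AK4, 25 and 27 without AK5, and 0 and 0 without AK6. They were 18 and 39 once WT1 was left out, 2 and 5 once WT2 was, and 1 and 0 once WT3 was. Scaling by library totals alone gave 452 higher and 119 lower. Every *Akita* library lay above every WT library in 13.2% of the genes tested, and below every WT library in 12.2%.

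*Gad1* was much lower in *Akita* islets. It had 9.87, 7.77 and 10.0 CPM in AK4, AK5 and AK6, against 43.2, 52.4 and 37.5 CPM in WT1, WT2 and WT3. The groups did not overlap, and the highest *Akita* library stood well under the lowest WT library. The means were 9.22 ± 1.25 CPM in *Akita* and 44.4 ± 7.50 CPM in WT (SD, n = 3 each), and the fitted log2 fold change was −2.27 (SE 0.18), a ratio of 0.208. These levels came from 212 to 273 reads per *Akita* library and from 775 to 1268 reads per WT library, so that counting error was small beside the difference. On the log2 scale 36 of the 15407 genes tested had a lower fold change. It was the only gene of the 7 tested that was called, which is 1 of the 132 lower genes, and nothing is read from that call since it is the value that picked the set.

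*Gad2* was a rare transcript in islets of both genotypes. It had 13, 3 and 10 reads in AK4, AK5 and AK6, against 120, 116 and 33 reads in WT1, WT2 and WT3. On the CPM scale this was 0.470, 0.110 and 0.398 in *Akita*, against 4.49, 4.79 and 1.60 in WT. All *Akita* values were under all WT values, and WT3 was the low library of its group. The exact 95% Poisson interval of the 3 reads in AK5 was 0.619 to 8.77 reads, and that of the 33 reads in WT3 was 22.7 to 46.3 reads; these intervals cover counting error only. The log2 fold change was −3.51 (SE 0.73), with a far wider error than that of *Gad1*, and was −2.90 without AK5.

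Both GAD genes were thus low in the same libraries, and *Gad1* supplied nearly all GAD message. Per kb of exon, *Gad1* made up 94.2%, 98.2% and 95.1% of the 2 transcripts together in AK4, AK5 and AK6, against 88.1%, 89.4% and 94.8% in WT1, WT2 and WT3. The groups overlapped, with means of 95.8% ± 2.11 in *Akita* and 90.7% ± 3.54 in WT (SD, n = 3 each).

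**Figure D1:**
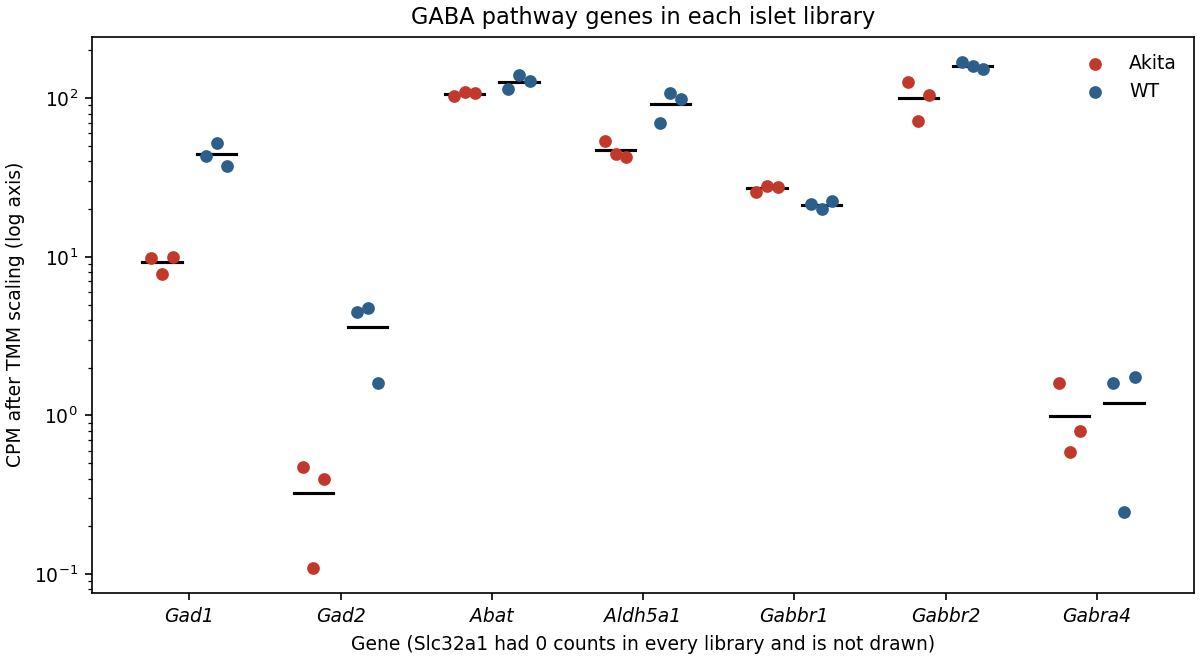
Level of 7 GABA pathway genes in CPM after TMM scaling (vertical log axis), 1 point per library, *Akita* left of WT, with the group mean as a line; *Slc32a1* had 0 counts throughout. *Gad1* lies between 7.77 and 10.0 CPM in *Akita* and between 37.5 and 52.4 CPM in WT, *Gad2* is separated in the same direction at far lower levels, *Gabbr1* is slightly higher in *Akita*, and the *Gabra4* points overlap.

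Per kb, both breakdown enzymes stood above both GAD genes in every library, and they differed less between the genotypes. *Abat* (chr16:8513429-8621568), whose product removes the amino group of GABA, had 104, 109 and 108 CPM in AK4, AK5 and AK6, against 114, 141 and 128 CPM in WT1, WT2 and WT3. The *Akita* libraries lay close together and just under the WT libraries, with a log2 fold change of −0.25 (SE 0.09). *Aldh5a1* (chr13:24907579-24937661), the next enzyme of the shunt, had 54.1, 44.7 and 42.7 CPM in *Akita*, against 69.8, 107 and 99.2 CPM in WT, where WT1 was the low library. The means were 47.2 ± 6.08 CPM in *Akita* and 92.0 ± 19.7 CPM in WT (SD, n = 3 each), and the log2 fold change was −0.94 (SE 0.18), a ratio of 0.520. *Aldh5a1* shares 796 and 203 of its 5647 exon bases with 2 genes on the opposite strand, 4932702P03Rik and 9330162012Rik, and because the kit does not mark strand their reads cannot be told apart there; the 2 partners had 30 to 125 reads per *Akita* library and 47 to 84 per WT library.

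The balance between these genes differed with genotype. *Gad1* per *Abat*, both per kb, was 0.0966, 0.0724 and 0.0940 in AK4, AK5 and AK6, against 0.386, 0.378 and 0.298 in WT1, WT2 and WT3. *Abat* per *Aldh5a1* was 1.40, 1.77 and 1.84 in *Akita*, against 1.19, 0.957 and 0.939 in WT. In neither ratio did the groups overlap: message for synthesis was lower relative to that for the first breakdown step, and message for the second breakdown step was lower relative to that for the first, in every *Akita* library. These 2 ratios were chosen after the values had been seen. The first contains *Gad1*, whose difference picked the set, so nothing more is read from its separation.

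*Slc32a1* (chr2:158610767-158615748), which encodes the carrier that loads GABA into synaptic vesicles of neurons, had 0 counts in all 6 libraries and was not tested. A floor of 3 counts corresponds to 0.108 to 0.120 CPM in the *Akita* libraries and to 0.112 to 0.145 CPM in the WT libraries, so that a level up to that size could have gone unseen. Of the 8 genes 5 shared no exon base with another gene, while *Slc32a1* shared 24.9% of its exon bases with Gm14205 on the opposite strand, which also had 0 counts.

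The 2 subunits of the GABA-B receptor stood in opposite directions. *Gabbr1* (chr17:37045966-37075067), the subunit that binds GABA, had 25.8, 28.1 and 27.5 CPM in AK4, AK5 and AK6, against 21.5, 20.1 and 22.5 CPM in WT1, WT2 and WT3. Every *Akita* library was above every WT library, by a small amount, with a log2 fold change of 0.35 (SE 0.09). *Gabbr2* (chr4:46662305-46991873), the subunit that couples to the G protein, had 127, 71.4 and 104 CPM in *Akita*, against 169, 160 and 152 CPM in WT. Every *Akita* library was lower and AK5 was the lowest, and the *Akita* libraries were spread more widely (101 ± 28.1 CPM in *Akita* and 161 ± 8.41 CPM in WT; SD, n = 3 each). The log2 fold change was −0.71 (SE 0.20).

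Per kb, *Gabbr2* exceeded *Gabbr1* in all libraries. The ratio of *Gabbr2* to *Gabbr1* was 5.73, 2.95 and 4.41 in AK4, AK5 and AK6, against 9.15, 9.25 and 7.85 in WT1, WT2 and WT3. The groups did not overlap, and the means were 4.36 ± 1.39 in *Akita* and 8.75 ± 0.778 in WT (SD, n = 3 each), so that the mean ratio in *Akita* was 0.498 of that in WT. The excess of *Gabbr2* message over its partner was thus smaller, and not lost, in *Akita*.

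**Figure D2:**
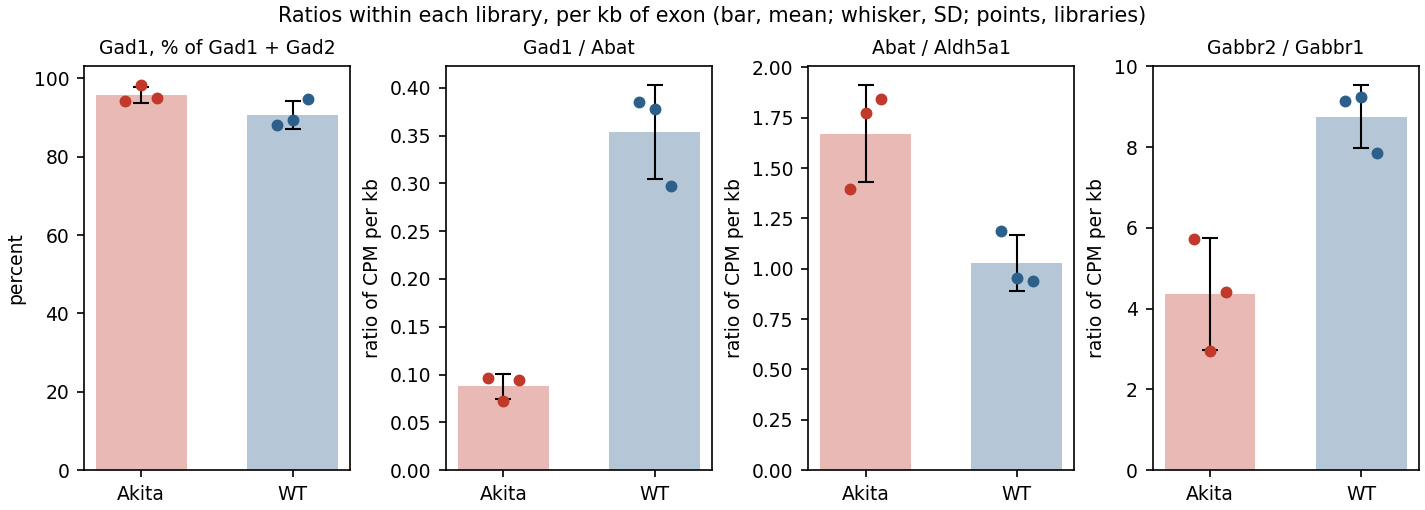
Ratios formed within each library from CPM per kb of exon: *Gad1* as a percentage of *Gad1* plus *Gad2*, *Gad1* over *Abat*, *Abat* over *Aldh5a1*, and *Gabbr2* over *Gabbr1*; bars are means and whiskers SDs of 3 libraries, points are libraries, *Akita* left of WT. *Gad1* over *Abat* and *Gabbr2* over *Gabbr1* are lower in all *Akita* libraries (means 0.0877 and 4.36) than in all WT libraries (means 0.354 and 8.75), *Abat* over *Aldh5a1* is higher, and the *Gad1* percentages overlap.

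*Gabra4* (chr5:71569749-71658308), an α subunit of GABA-A receptors, was measured by few reads; 0.756% of its exon bases are shared with *Gabrb1* on the opposite strand. It had 44, 16 and 20 reads in AK4, AK5 and AK6, against 43, 6 and 36 reads in WT1, WT2 and WT3. The groups overlapped and the libraries of each group differed from each other more than the groups did (log2 fold change 0.03, SE 0.77). Without WT2 the log2 fold change was −0.86, so that no direction can be given for *Gabra4* from these libraries.

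Of the 7 genes tested, *Gad1*, *Gad2*, *Abat*, *Aldh5a1* and *Gabbr2* had every *Akita* library below every WT library, *Gabbr1* had every *Akita* library above, and *Gabra4* overlapped. These counts of 5 and 1 stand beside 12.2% and 13.2% of all genes tested, and since *Gad1* picked the set nothing more is read from them. *Gad2* reached the count minimum in 5 libraries, among them all WT libraries, and would have passed the filter on its WT level alone. The median size of a log2 fold change over all genes tested, without regard to sign, was 0.18.

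**Figure D3:**
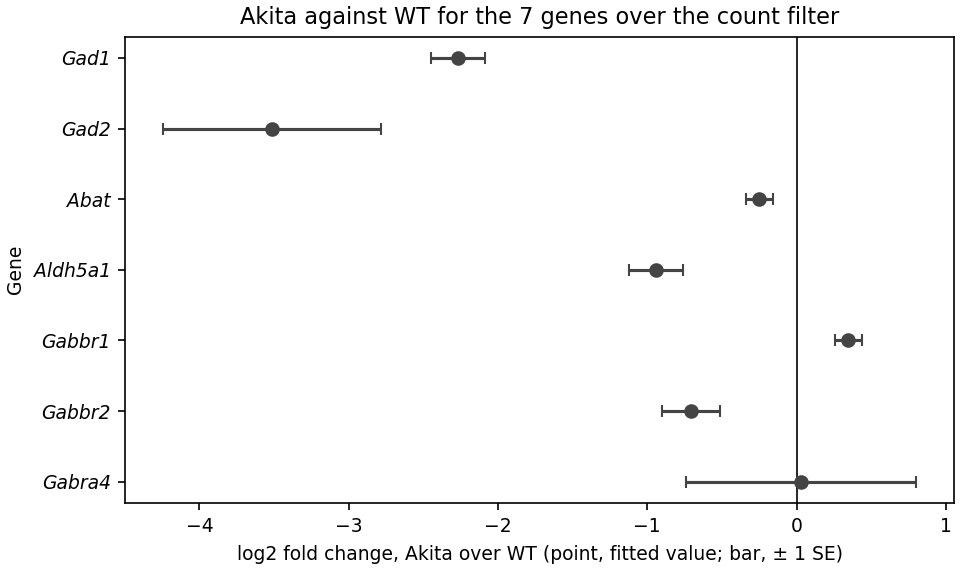
Fitted log2 fold change, *Akita* over WT (horizontal axis), of the 7 genes that passed the count filter; points are limma-voom estimates and bars 1 SE to each side. *Gad1* at −2.27 and *Gad2* at −3.51 are farthest from 0, *Aldh5a1* and *Gabbr2* lie at −0.94 and −0.71, *Abat* and *Gabbr1* lie close to 0 on opposite sides, and the bar of *Gabra4* crosses 0.

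The order of levels per kb also differed. In *Akita* islets the mean levels were 15.1 CPM per kb for *Gabbr2*, 13.8 for *Abat*, 8.35 for *Aldh5a1*, 3.50 for *Gabbr1*, 1.21 for *Gad1*, 0.163 for *Gabra4* and 0.0555 for *Gad2*. In WT islets they were 24.0 CPM per kb for *Gabbr2*, 16.4 for *Abat*, 16.3 for *Aldh5a1*, 5.81 for *Gad1*, 2.75 for *Gabbr1*, 0.617 for *Gad2* and 0.197 for *Gabra4*. *Gad1* thus stood below *Gabbr1* in *Akita* and above it in WT, with no overlap of the 2 genes' libraries in either genotype. Neighbours that overlapped were *Gabbr2* and *Abat* in *Akita*, and *Abat* and *Aldh5a1* as well as *Gad2* and *Gabra4* in WT.

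β-Cell genes moved in the same libraries as *Gad1*. Of 15 β-cell markers, 12 had a log2 fold change below 0 and 5 were called lower by limma-voom (*Ins2*, *G6pc2*, *Mafa*, *Nkx6-1* and *Sytl4*), with a list median of −0.49 against −0.00106 over all genes tested. Of all genes tested 0.857% were called lower. No gene at all was called lower without AK6 or without WT3, so these 5 calls were lost there. The summed level of the 15 markers was 133470 to 158290 CPM in *Akita*, against 223990 to 247750 CPM in WT. By counts *Ins2*, *Ins1* and *Iapp* made up nearly all of it, so the sum says little about the other markers. The 11 α-cell markers had a median of 0.46 with none called by limma-voom (before adjustment, p was under 0.05 for 5 higher and 1 lower genes), and a summed level of 40465 to 62753 CPM in *Akita*, against 28376 to 43590 CPM in WT. That sum was mostly *Gcg*, with means of 50956 CPM in *Akita* and 34963 CPM in WT. From such bulk samples alone, fewer cells of a type and less RNA per cell cannot be told apart. The study also counted islet cells in mice of this age. It reported that the ratio of β- to α-cells and the β-cells per islet area were alike in both genotypes. From this it held that islet composition did not influence its comparison of transcripts. Cell composition of the sequenced pools themselves was not tested here. Set against the insulin message in place of the library, *Gad1* had 0.913, 0.632 and 0.802 counts per 10000 counts of *Ins1* plus *Ins2* in AK4, AK5 and AK6, against 2.29, 2.83 and 1.83 in WT1, WT2 and WT3. Set against the summed counts of the other 13 β-cell markers, it had 3.89, 2.44 and 2.98 counts per 10000 in *Akita*, against 12.2, 12.0 and 8.84 in WT. By counts *Iapp* made up most of that sum, with means of 26579 CPM in *Akita* and 34655 CPM in WT. The next highest, *G6pc2*, had means of 1028 and 2503 CPM. On both scales, chosen after the data had been seen, *Gad1* was lower in every *Akita* library than in every WT library, with differences of −1.56 and −1.84 on the log2 scale, smaller in size than the −2.27 per library.

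Markers of GABA neurons were near 0 in both genotypes. The 6 transcription factors of GABA neurons (*Dlx1*, *Dlx2*, *Dlx5*, *Dlx6*, *Lhx6* and *Lhx8*) were not tested for want of counts and summed to 0.279 to 0.550 CPM in *Akita* and to 0.289 to 0.562 CPM in WT, with *Dlx6* and *Lhx8* at 0 in every library. Of 12 genes of peripheral neurons 9 were tested, with a median log2 fold change of 1.64, and *Th*, the rate-limiting enzyme of catecholamine synthesis, was called higher in *Akita* (59.3, 70.9 and 61.8 CPM, against 28.0, 30.1 and 33.8 CPM in WT; log2 fold change 1.07, limma adjusted p = 0.013). Before adjustment, p was under 0.05 for 5 higher genes, *Th* included, and 1 lower gene. Of all genes tested 0.759% were called higher, and none was without AK6, so the call of *Th* was lost there. *Th* (chr7:142892752-142931128) also lies near *Ins2* (chr7:142678656-142699510), which carries the *Akita* mutation, and the part of this position was not tested. The cholinergic genes differed in level: *Chat* was at or below 0.112 CPM in all libraries, whereas *Slc5a7*, the choline transporter, had 1.30, 1.14 and 0.478 CPM in *Akita*, against 0.412, 0.0413 and 0.0968 CPM in WT (log2 fold change 2.61, limma adjusted p = 0.136). *Dbh*, of noradrenergic neurons, had at most 0.0367 CPM. *Prph* and *Nefl*, which encode neuronal intermediate filaments, had log2 fold changes of 1.90 and 1.94 (limma adjusted p = 0.126 and 0.125), with every *Akita* library above every WT library at low levels. The neurofilament genes *Nefm* and *Nefh*, at higher levels, went in opposite directions. *Nefm* had a log2 fold change of 0.47 (limma adjusted p = 0.380). *Nefh* had 4.67, 4.66 and 5.58 CPM in *Akita*, against 6.25, 11.7 and 9.25 CPM in WT (log2 fold change −0.81, limma adjusted p = 0.170). The list summed to 118 to 129 CPM in *Akita* and to 60.1 to 90.1 CPM in WT; without *Th* the sums overlapped, with 55.8 to 65.1 CPM in *Akita* and 32.1 to 56.8 CPM in WT. The part of these neuronal genes in the results was not tested. Of 71 tested markers of δ-cells, PP- and ε-cells, acinar, duct, endothelial, macrophage, mesenchymal and Schwann cells none was called by limma-voom (before adjustment, p was under 0.05 for 7 higher and 3 lower genes); their medians ranged between −0.74 for acinar genes and 0.82 for PP- and ε-cell genes. Acinar sums were 6432, 391.5 and 7603 CPM in WT1, WT2 and WT3, where *Gad1* had 43.2, 52.4 and 37.5 CPM. They were 8257, 343.5 and 1537 CPM in AK4, AK5 and AK6, where *Gad1* had 9.87, 7.77 and 10.0 CPM. The library lowest in acinar genes thus had the highest *Gad1* in WT and the lowest in *Akita*. The part of acinar content in the *Gad1* values was not tested.

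The other genes of the pathway were taken from 7 lists of 111 genes in all, of which 85 could be tested. By limma-voom with adjustment over all genes tested, none rose and 1 fell in *Akita*, which is 1.18% of those tested against 0.857% of all genes. Their median log2 fold change was −0.01, against −0.00106 over all genes. At an unadjusted p under 0.05, 8 were higher and 10 lower, and limma-trend likewise called none higher and 1 lower. The share of all genes tested under that unadjusted threshold is not given here, so nothing is read from such counts for any list. The lists were chosen with earlier results of these data known.

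The gene that fell was *Maob*, a monoamine oxidase that in other tissues oxidises acetylated putrescine in the route to GABA that bypasses GAD. It had 203, 191 and 195 CPM in AK4, AK5 and AK6, against 269, 365 and 313 CPM in WT1, WT2 and WT3. The *Akita* libraries lay close together under all WT libraries, with a log2 fold change of −0.67 (SE 0.11, limma adjusted p = 0.0434). The call stood close to the threshold: it was kept without AK4 (adjusted p = 0.0425) and without WT1 (0.0453), and lost without AK5 (0.127), AK6 (0.136), WT2 (0.132) or WT3 (0.164), while the log2 fold change stayed between −0.78 and −0.56. Over all alternatives its limma adjusted p ranged between 0.0255 and 0.164.

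*Maob* belongs to the list of the shunt's exit into the citric acid cycle, the putrescine route and the γ-hydroxybutyrate branch, where 17 of 18 genes were tested, 1 fell and 16 did not pass. Before adjustment, p was under 0.05 for 7 lower and 0 higher genes, which were 7 of the 10 lower genes over all 7 lists. In 7 of the 17 genes every *Akita* library was below every WT library, against 12.2% of all genes tested. The list's median log2 fold change was −0.20, and 15 of the 17 values were below 0. The genes highest in CPM beside *Maob* were *Ogdh*, the decarboxylating subunit of α-ketoglutarate dehydrogenase that competes with the shunt (251, 221 and 228 CPM in *Akita*, against 263, 302 and 277 CPM in WT; log2 fold change −0.27, limma adjusted p = 0.154), and *Sdha*, the flavoprotein of succinate dehydrogenase (log2 fold change −0.08, limma adjusted p = 0.584).

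Among the GABA-A receptor subunits, 5 of 18 had enough counts to test and none was called by limma-voom, nor was any at an unadjusted p under 0.05. *Gabrp*, the π subunit, had 0.550 to 1.95 CPM in *Akita* and 0.678 to 3.78 CPM in WT, and *Gabrg1*, a γ subunit, had 0.797 to 1.87 CPM in *Akita* and 0.909 to 1.09 CPM in WT. *Gabra6* and *Gabrr3* had 0 counts in every library (these 2 and *Gabra5* were picked after their values were seen). Per kb, *Gabra4* with means of 0.163 CPM in *Akita* and 0.197 in WT was the highest α subunit, followed by *Gabra5* with 0.113 in *Akita* and 0.120 in WT.

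In the list of GABA transport and release, 7 of 11 genes were tested and none was called by limma-voom (1 higher at an unadjusted p under 0.05). *Slc6a6*, the taurine transporter, which also carries GABA, had 332, 394 and 352 CPM in *Akita*, against 365, 356 and 359 CPM in WT (log2 fold change −0.01, SE 0.079, limma adjusted p = 0.974). *Lrrc8d* and *Lrrc8b*, subunits of the volume-regulated anion channel, had log2 fold changes of 0.14 (limma adjusted p = 0.406) and 0.27 (limma adjusted p = 0.264).

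Of the genes that assemble, anchor or modify GABA receptors, 19 of 20 were tested and none was called by limma-voom (before adjustment, p was under 0.05 for 1 higher and 2 lower genes), with a median log2 fold change of 0.01. *Gabarap*, a ubiquitin-like adaptor that binds the γ subunit and also serves autophagy, had 322, 348 and 384 CPM in *Akita*, against 385, 418 and 396 CPM in WT (log2 fold change −0.19, limma adjusted p = 0.291). *Hap1* and *Gabarapl1*, a trafficking adaptor and a relative of *Gabarap*, had log2 fold changes of 0.17 (limma adjusted p = 0.588) and 0.27 (limma adjusted p = 0.350).

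Of the relatives of GAD and the genes for its cofactor and membrane anchoring, 7 of 9 were tested and none was called by limma-voom (2 higher at an unadjusted p under 0.05). *Dnajc5* and *Hspa8*, chaperones found with GAD on synaptic vesicles, had log2 fold changes of −0.10 (limma adjusted p = 0.450) and 0.37 (limma adjusted p = 0.590), and *Zdhhc17*, which palmitoylates the smaller GAD isoform, had −0.05 (limma adjusted p = 0.754). In the supply of glutamate and glutamine, 17 of 21 were tested and none was called by limma-voom (2 higher at an unadjusted p under 0.05). *Glud1*, glutamate dehydrogenase, and *Glul*, glutamine synthetase, had log2 fold changes of 0.10 (limma adjusted p = 0.670) and 0.15 (limma adjusted p = 0.632).

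Of the genes for the chloride gradient and for GABA-B signalling, 13 of 14 were tested and none was called by limma-voom (before adjustment, p was under 0.05 for 2 higher and 1 lower genes), with a median log2 fold change of 0.22. The inhibitory G protein α subunits *Gnai2*, *Gnao1* and *Gnai3* were the highest in CPM and had log2 fold changes of −0.06 (limma adjusted p = 0.758), 0.04 (limma adjusted p = 0.854) and −0.36 (limma adjusted p = 0.129). *Gnai3* had 227, 204 and 249 CPM in *Akita*, against 268, 319 and 284 CPM in WT, with all *Akita* libraries below all WT libraries.

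**Figure D4:**
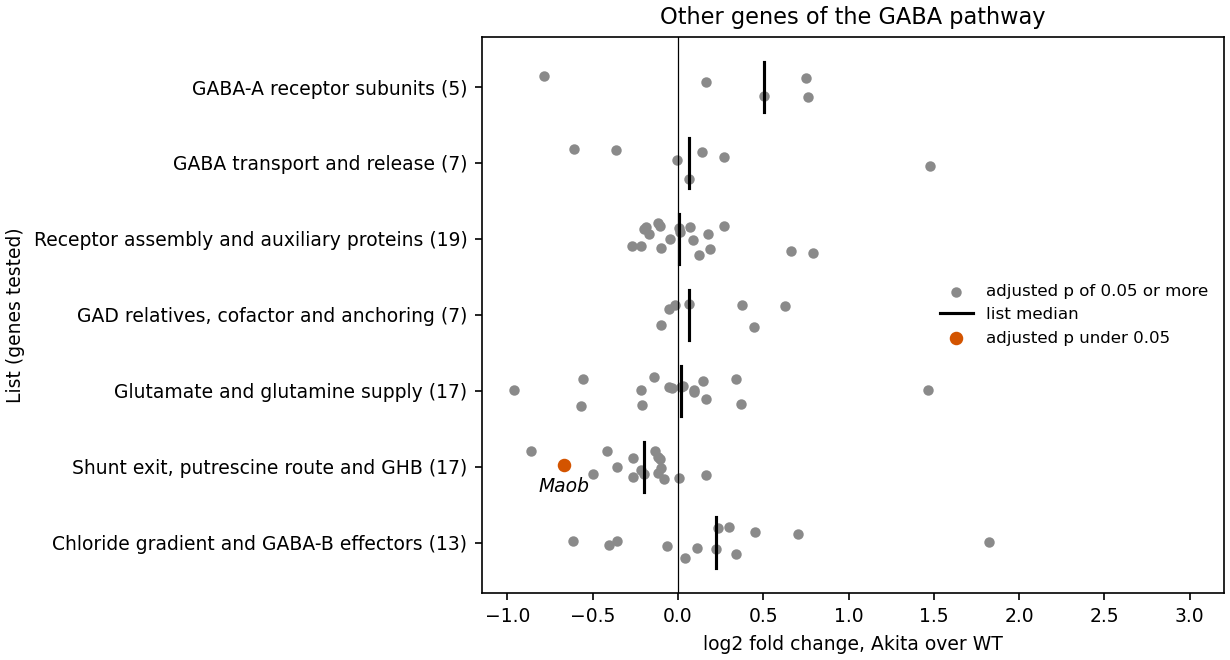
Log2 fold change, *Akita* over WT (horizontal axis), of 85 other genes of the GABA pathway in 7 lists (rows, number tested in brackets); each point is a gene and the black bar is the list median. *Maob* at −0.67 is the only gene with an adjusted p under 0.05, and the medians lie between −0.20 and 0.50.

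The genes whose pattern over the 6 libraries was most like that of *Gad1* were found by the distance between profiles of log2(CPM + 0.5), each centred on its WT mean, among 10447 tested genes with a mean of 5 CPM or more. They were *Dlgap1*, a scaffold of the postsynaptic density (distance 0.47), *Impg2*, a proteoglycan of the retina (0.75), *Grin1*, the obligatory subunit of NMDA glutamate receptors (0.79), *Npy*, a neuropeptide gene (0.88), and *Hpgds*, a prostaglandin D synthase (0.88). *Dlgap1* had 6.51, 3.59 and 4.50 CPM in AK4, AK5 and AK6, against 21.9, 27.8 and 23.9 CPM in WT1, WT2 and WT3. *Grin1* had 8.06, 5.90 and 6.65 CPM in *Akita*, against 21.5, 28.2 and 28.9 CPM in WT. *Gad2*, below the level minimum, was at a distance of 0.83, while the other 5 genes of the set that were tested lay between 2.26 for *Aldh5a1* and 4.44 for *Gabbr1*. Likeness over 6 libraries of 2 genotypes is mostly likeness of the genotype difference, and nothing more is read from it.

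**Figure D5:**
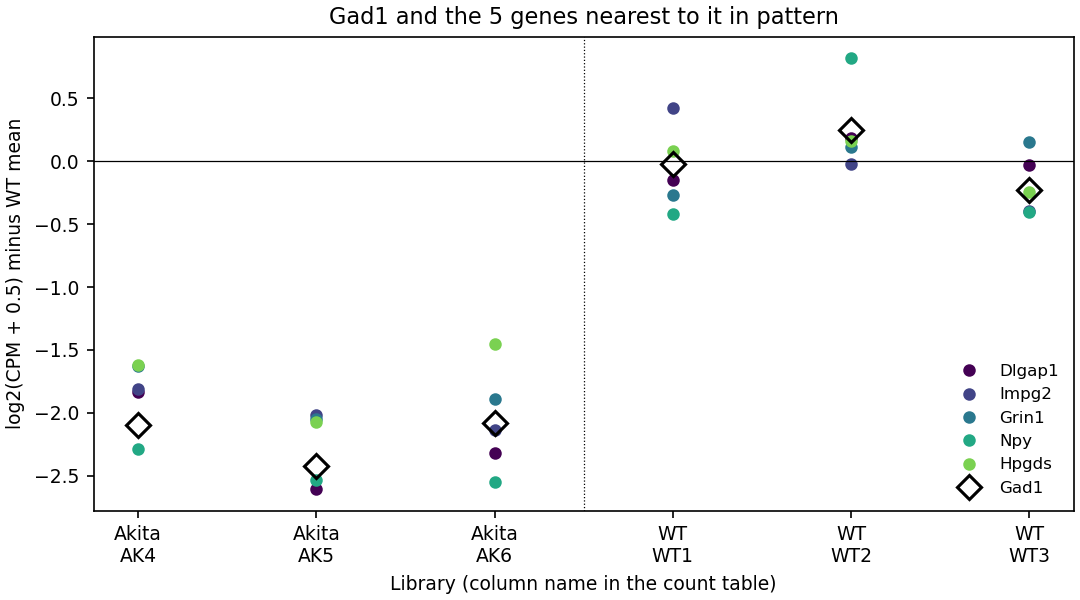
Log2(CPM + 0.5) minus the gene's own WT mean (vertical axis) in each library (horizontal axis, *Akita* left of WT) for *Gad1* (diamonds) and the 5 genes nearest to it in pattern (dots). *Gad1* lies between −2.43 and −2.08 in the *Akita* libraries and between −0.23 and 0.25 in the WT libraries, and the other genes lie around it.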

How the data were processed

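RNA of whole islets was sequenced in 3 pools each of *Akita* and WT mice (TruSeq RNA V2, single reads of 50 bp). By its methods and the submitters' processing notes, the study used cutadapt 1.12, STAR 2.5.2b with GRCm38, HTSeq 0.7.2 and DESeq2 1.12.4, and whether counting used strand is not stated in the sources read. The table the authors deposited holds raw counts per gene and library, which were used, and 6 columns of normalized counts and the fold changes and p-values of their own comparison, which were not. In 6815 of 47729 rows a mark stands in place of counts, and these rows were left out. The marks kept the columns from passing as counts, so limma-voom replaced the count-model test planned.

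A gene was tested if 3 or more libraries reached the level of 10 counts in a library of median size and its counts summed to 15 or more. Counts were scaled by TMM and fitted with limma 3.58.1 in R 4.3.3 (log2 CPM, pseudocount 0.5), after a check on simulated data. Exon lengths and overlaps came from GENCODE on GRCm38 (the release counted with may be another), and windows of 300 bases at gene starts from RefSeq (7 of 8 genes matched). Alternatives were other scalings, filters, models, thresholds and lengths, an acinar covariate, and each library left out.

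The members and lists were chosen with earlier results of these data known. Named are all members, the called genes and the 3 highest in mean CPM of each pathway list, the 5 genes nearest to *Gad1* in pattern, and cell type markers; other genes named are said to be chosen after their values were seen. Some genes counted in the lists are not reported by name.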

Additional observations from a re-analysis of the deposited data

How the results depend on the processing

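*Gad1*, *Gad2*, *Abat*, *Aldh5a1*, *Gabbr1* and *Gabbr2* kept the sign of their log2 fold change under every alternative that gave a value, with *Gad1* between −2.38 and −2.14 when each library was left out. Set against *Ins1* plus *Ins2* or against the summed counts of the other β-cell markers, mostly *Iapp*, *Gad1* was at −1.56 and −1.84. *Gad2* was at −1.73 by limma-trend on log2(CPM + 1), between −3.97 and −2.90 with each library left out, and was not tested with at least 10 counts in every library; neither was *Gabra4*, which ranged between −0.86 and 0.49 with each library left out. Scaling by library totals alone, which shifted the median of all genes by 0.119, gave −0.13 for *Abat* and 0.47 for *Gabbr1*. All genes called higher in *Akita* numbered 452 by library totals, 272 with sample quality weights, 369 at a threshold of 0.1, 0 at 0.01 and 0 to 346 with each library left out (0 without AK6, 346 without AK4); those called lower numbered 249 with quality weights, 375 at 0.1, 0 at 0.01 and 0 to 242 with each library left out. Of the pathway lists, 3 genes were called higher by library totals (*Kctd12* and *Csad* among them), 2 with quality weights (*Kctd12* and *Csad*), 1 with the acinar covariate (*Slc7a11*), 3 at a threshold of 0.1 and 0 to 1 with each library left out (*Csad*, without AK4); the call of *Maob* lower was the 1 call or became 0 with each library left out, and became 0 at 0.01. With the longest transcript as length, *Gad1* made up 97.9% of GAD message in *Akita* and 95.3% in WT, and the *Gabbr2* to *Gabbr1* ratio in WT was 6.88; with no length correction that ratio was 7.54. Of the 5 genes nearest to *Gad1*, 4 were shared with log2(CPM + 2) and 3 with a level minimum of 1 CPM. No paired analysis was possible because the *Akita* columns carry other numbers than the WT columns. Depth limits *Slc32a1*, with 0 counts, and *Gad2* in *Akita*, with 3 to 13 counts per library; for *Gabra4* and for *Gad2* in WT the counts of pools of one genotype differed by more than their counting intervals.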

Other observations

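Some genes of the pathway lists, chosen after their values were seen, differed in level without passing the test. *Slc7a11*, which exchanges cystine for glutamate, had 44.0, 22.9 and 38.9 CPM in AK4, AK5 and AK6, against 17.8, 8.22 and 12.2 CPM in WT1, WT2 and WT3 (log2 fold change 1.47, SE 0.36, limma adjusted p = 0.0982). *Kctd12*, an auxiliary subunit of GABA-B receptors, had 32.9, 39.9 and 37.6 CPM in *Akita*, against 27.4, 17.6 and 19.1 CPM in WT (log2 fold change 0.79, SE 0.17, limma adjusted p = 0.0747). *Csad*, which makes hypotaurine and is related to GAD, had 30.2, 41.4 and 33.1 CPM in *Akita*, against 23.7, 20.2 and 23.3 CPM in WT (log2 fold change 0.63, SE 0.14, limma adjusted p = 0.0819). In all 3 genes every *Akita* library was above every WT library.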
